A study of Mus musculus with 6 samples.

Results

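Glutamate released at a synapse is taken up, turned into glutamine, handed back to neurons and packed into vesicles again, and the 9 genes described here encode the transporters and the enzyme of that circuit. They were chosen by symbol for these roles: the plasma membrane transporters Slc1a1, Slc1a2, Slc1a3 and Slc1a4, the enzyme Glul, the vesicular transporters Slc17a6, Slc17a7 and Slc17a8, and the glutamine transporter Slc38a1. They make up 9 of the 23282 gene entries in each count table. All 9 were counted in every library, and all 9 passed the filter on low counts that left 13771 genes to test.

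The RNA came from the forebrain of wild-type C57BL/6J male mice that were 8 to 10 weeks old and spent 10 days on a normal chow diet (NCD) or on a high-fat diet (HFD) with 60% of its energy as fat. Each diet had 3 libraries, made from forebrain that was split into hemispheres for RNA and metabolite work after the olfactory bulbs and the cerebellum had been taken off, and sequenced from the 3′ ends of the mRNA with the QuantSeq kit. The comparison asks how brain transcripts differ after a short exposure to the HFD. The labels number the libraries of a diet 1 to 3 and do not say that each is a separate mouse, so the p-values below measure the spread between these libraries, which may be in part technical.

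In the forebrain, most glutamate that leaves a synapse is cleared by astrocytes through GLT-1 (Slc1a2) and GLAST (Slc1a3), while EAAC1 (Slc1a1) sits mainly on neurons and also carries cysteine. Astrocytes join the glutamate to ammonia through glutamine synthetase (Glul), and the glutamine passes to neurons through carriers that include SNAT1 (Slc38a1). Neurons turn glutamine back into glutamate, and the vesicular transporters VGLUT1 (Slc17a7, chiefly cortex and hippocampus), VGLUT2 (Slc17a6, chiefly thalamus, hypothalamus and brainstem) and VGLUT3 (Slc17a8, scattered serotonergic, cholinergic and inhibitory neurons) load it into vesicles. ASCT1 (Slc1a4) belongs to the same family as the glutamate carriers but exchanges neutral amino acids such as serine and alanine.

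Total counts ran from 6842785 to 9689372 per library. The labelled tissue had its markers: the astrocyte list summed to between 2097 and 2335 CPM, the count scaled to the size of the library, and the list for cortical and hippocampal excitatory neurons to between 2178 and 2747 CPM. HFD replicate 3 stood apart from the other 5 libraries. It held 7943 counts of growth hormone (Gh), against 12 to 71 in the others, and it was the lowest of the 6 libraries for 27.1% of all genes tested and the highest for 26.2%. NCD replicate 3 came next, as the lowest for 21.7% and the highest for 21.4%. HFD replicate 3 also had the least of the hypothalamus markers, 29.5 CPM against 71.5 to 115 CPM, and of the midbrain markers, 23.6 CPM against 39.7 to 52.1 CPM. Erythroid markers summed to 420 to 519 CPM on the NCD and 545 to 819 CPM on the HFD, without overlap, and 4 of these 5 markers had an unadjusted p under 0.05. Of the 5 hepatocyte markers tested, 4 were lower on the HFD with an unadjusted p under 0.05. All 4 olfactory bulb markers tested were lower on the HFD, 2 of them with an unadjusted p under 0.05, and their list summed to 139.9 CPM in NCD replicate 2 and to between 52.2 and 81.4 CPM in the other 5 libraries. Th, among these 2, is also on the midbrain list, and Pbx3 had the most counts of the olfactory bulb list. The part of these differences in the results below was not tested, and values without HFD replicate 3 are given beside those that differ most without it.

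No member of the circuit passed the test at an adjusted p of 0.05 in the quasi-likelihood test of edgeR, adjusted by the Benjamini-Hochberg method across the 13771 genes, and the same was true of all genes (percent called 0). At an unadjusted p of 0.05 the test held 1 of the 9 members, Slc1a1, which was lower on the HFD, beside 3.68% of all genes (1.98% for lower values alone). DESeq2 also gave 0 members after adjustment and the same 1 without it. The NCD and HFD libraries did not overlap for 1 of the 9 members, again Slc1a1, against 8.81% of all genes. The log2 fold change was below 0 for 8 of the 9 members, against 50.6% of all genes, and its median was −0.06, against −0.00245 over all genes. HFD replicate 3 was the lowest library for 5 of the 9 members, against 27.1% of all genes. Without it, 7 of the 9 were below 0 and the median was again −0.06, but the genes below 0 were not the same. The sign changed for Slc1a4 (to 0.07), for Slc17a6 (to 0.000114) and for Slc17a8, a gene of few counts (from 0.02 to −0.17). Slc1a2 and Slc1a3 were then at −0.01 and −0.012. In bulk tissue, fewer cells of a type and less RNA per cell cannot be told apart, and this holds for every value that follows.

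**Figure D1:**
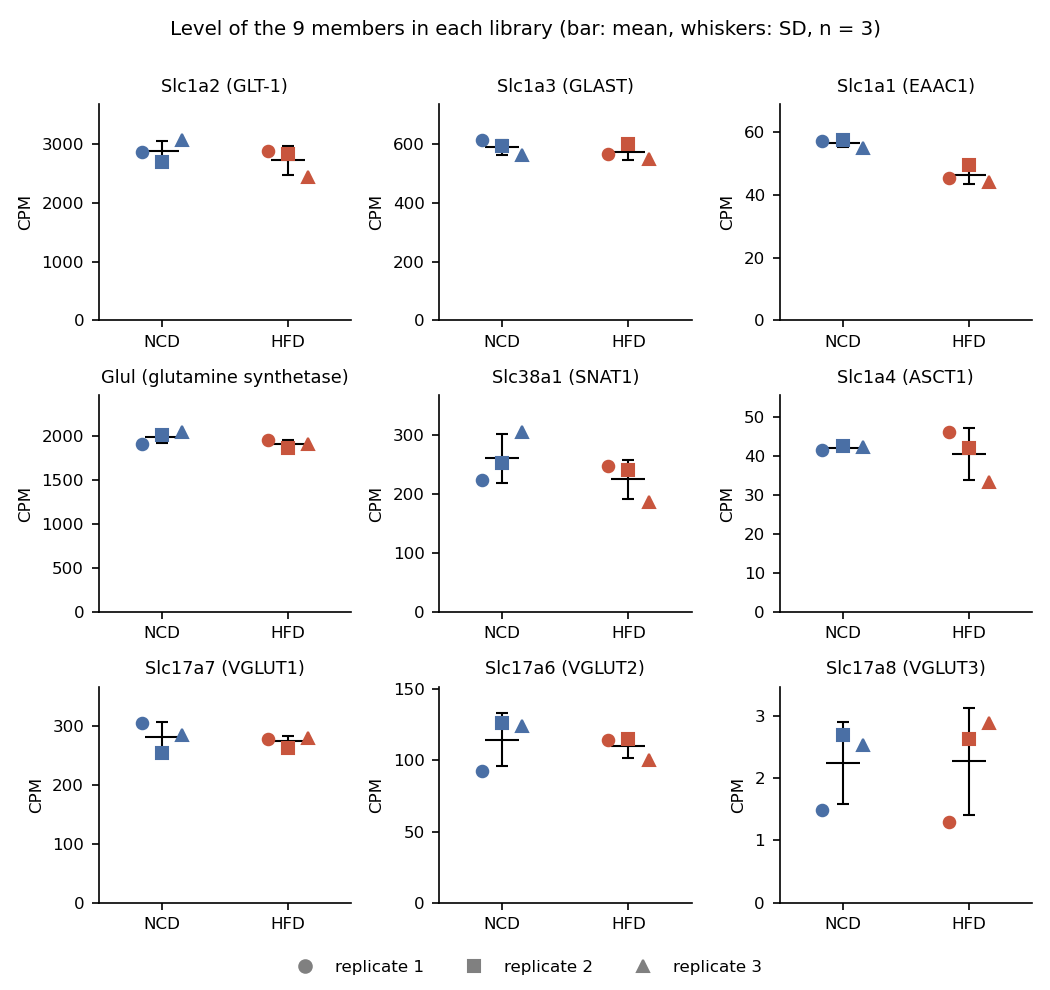
Level of each of the 9 genes in CPM (vertical axis, from 0, its own scale for each gene) in the 3 NCD and 3 HFD libraries, with the mean and SD of each diet (n = 3) and marker shapes for the replicate number. Slc1a1 is the only gene of the 9 whose diets do not overlap, with 55.0 to 57.3 CPM on the NCD and 44.1 to 49.5 CPM on the HFD.

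Slc1a1, the neuronal carrier EAAC1, lies on chromosome 19 from 28835049 to 28913960 on the plus strand (mm10). It had 57.2, 57.3 and 55.0 CPM in NCD replicates 1 to 3 and 45.2, 49.5 and 44.1 CPM in HFD replicates 1 to 3, from counts of 463, 531 and 522 against 314, 453 and 321. Every HFD library was below every NCD library, and HFD replicate 2 came closest to the NCD. The means were 56.5 ± 1.28 CPM (SD, n = 3) and 46.3 ± 2.84 CPM (SD, n = 3), so the HFD mean was 81.9% of the NCD mean. The log2 fold change was −0.29 with a standard error of 0.11 and a 95% interval from −0.52 to −0.05, which puts the HFD level between 0.695 and 0.969 times that of the NCD. Its edgeR p was 0.0223 before and 0.979 after Benjamini-Hochberg adjustment, so the difference did not pass the test across genes. The lower mean did not rest on HFD replicate 3, since without that library the log2 fold change was −0.25 with an edgeR p of 0.0348. With NCD replicate 1, NCD replicate 2 or HFD replicate 1 left out, the values were −0.28, −0.27 and −0.27, and the unadjusted edgeR p was 0.0634, 0.0633 and 0.0655.

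The transcript of Slc1a1 overlaps that of 4430402I18Rik, a gene on the other strand, over as many as 1524 bases of exon, and the use of strand in the authors' counting is not given in the sources used here. Reads from the pair could then not be told apart in that stretch. The neighbour itself had 43, 28 and 32 counts on the NCD and 18, 41 and 31 counts on the HFD, few beside those of Slc1a1. Of the 50-base words of the longest Slc1a1 transcript, 30.1% also occur in another gene, all of them in reverse in 4430402I18Rik. They are part of this same overlap, and 0 of them fall in the last 500 bases, where 3′ reads are expected to gather. Markers of excitatory neurons, the cells that carry much of EAAC1, ran from 2389 to 2731 CPM on the NCD and from 2178 to 2747 CPM on the HFD, and the diets overlapped. Of these 8 markers, 4 were lower and 4 higher on the HFD.

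Slc1a2, which encodes GLT-1, the main astrocytic glutamate carrier of the forebrain, was the most abundant of the 9. It is on chromosome 2 from 102658659 to 102790784 on the plus strand and stood at the 99.9th percentile of all genes tested. Its levels were 2863, 2705 and 3066 CPM on the NCD and 2890, 2838 and 2448 CPM on the HFD. HFD replicate 3 was the lowest library, while HFD replicates 1 and 2 lay within the NCD range. The means of 2878 ± 181 CPM and 2726 ± 242 CPM (SD, n = 3 each) gave a log2 fold change of −0.08 with an interval from −0.27 to 0.12, and the unadjusted edgeR p was 0.407. The interval leaves room for an HFD level between 0.827 and 1.08 times that of the NCD, and without HFD replicate 3 the log2 fold change was −0.01.

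Slc1a3, the gene of GLAST, a glutamate carrier of astrocytes and radial glia, lies on chromosome 15 from 8634124 to 8710764 on the minus strand. It had 614, 593 and 562 CPM on the NCD and 568, 600 and 549 CPM on the HFD, and the ranges overlapped. A log2 fold change of −0.04 had an interval from −0.24 to 0.16, so the HFD level was between 0.847 and 1.11 times that of the NCD (edgeR adjusted p = 0.979), and without HFD replicate 3 the log2 fold change was −0.012. The summed astrocyte markers, which hold no gene of the 9, were 2097 to 2212 CPM on the NCD and 2171 to 2335 CPM on the HFD. That sum was mostly Aldoc and S100b. Of the 10 markers, 5 were lower and 5 higher on the HFD, with a median log2 fold change of −0.02, and 0 passed an unadjusted p of 0.05.

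GLT-1 transcripts made up between 80.5% and 83.3% of the counts of the 3 acidic amino acid carriers Slc1a1, Slc1a2 and Slc1a3 in each library. Slc1a1 made up 1.61 ± 0.108% of that sum on the NCD and 1.39 ± 0.0853% on the HFD (SD, n = 3 each). The ratio of Slc1a3 to Slc1a2 counts, which needs no scaling between libraries, was 0.206 ± 0.0195 on the NCD and 0.211 ± 0.0138 on the HFD. Its difference on the log2 scale was 0.04 with an exact two-sided permutation p of 0.7, and it was −0.0069 without HFD replicate 3. With 3 libraries against 3 the smallest p that this test allows is 0.1.

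Glul encodes glutamine synthetase, the astrocytic enzyme that closes the uptake side of the circuit, and lies on chromosome 1 from 153899944 to 153909723 on the plus strand. The levels were 1904, 2004 and 2048 CPM on the NCD and 1955, 1856 and 1908 CPM on the HFD. The HFD libraries 1 and 3 lay inside the NCD range and HFD replicate 2 just under it. Glul was the steadiest of the 9 genes on the HFD, with a coefficient of variation of 2.58%, and had 3.71% on the NCD. Its log2 fold change was −0.06 with an interval from −0.24 to 0.12 (edgeR adjusted p = 0.979), or an HFD level between 0.848 and 1.09 times that of the NCD. Pseudogenes of Glul share 50-base words with it, 309 of them with Glns-ps1, but 0 in the last 500 bases of the longest transcript. Because multiple alignments were counted by the authors, reads may be split between such copies, which was not tested.

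Slc1a2 and Glul together held between 78.0% and 78.8% of the counts of the 9 genes in every library. The ratio of Glul to Slc1a2 was 0.691 ± 0.043 on the NCD and 0.703 ± 0.0668 on the HFD, with a log2 difference of 0.02 and an exact permutation p of 0.8, and the difference was −0.054 without HFD replicate 3. Enzyme and carrier transcripts thus stood in an overlapping proportion on both diets, with the highest ratio, 0.779, in HFD replicate 3 and the lowest, 0.654, in HFD replicate 2.

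Slc38a1, the sodium-coupled carrier SNAT1 that brings glutamine into neurons, lies on chromosome 15 from 96571418 to 96642913 on the minus strand. It had 224, 252 and 306 CPM on the NCD and 247, 241 and 186 CPM on the HFD. NCD replicate 3 was high and HFD replicate 3 low, and the other 4 libraries lay between 224 and 252 CPM. The means of 261 ± 41.7 CPM and 225 ± 33.6 CPM (SD, n = 3 each) gave a log2 fold change of −0.22 with a standard error of 0.13 and an interval from −0.49 to 0.06, and the unadjusted edgeR p was 0.122. The difference was smaller without either library at the ends of the range, at −0.10 without HFD replicate 3 and −0.08 without NCD replicate 3. The ratio of Slc38a1 to Glul, the glutamine importer set against the enzyme that makes glutamine, was 0.131 ± 0.0166 on the NCD and 0.118 ± 0.0178 on the HFD, with a log2 difference of −0.16 and an exact permutation p of 0.6. That difference was −0.025 without HFD replicate 3 and −0.057 without NCD replicate 3.

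**Figure D2:**
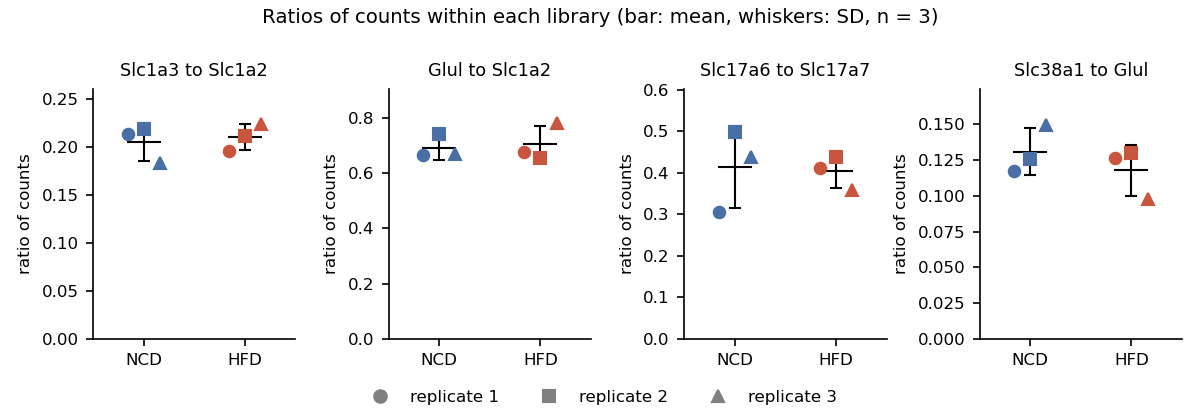
Ratios of counts of gene pairs within each library (vertical axes, from 0, no unit) for the NCD and the HFD, with the mean and SD of each diet (n = 3) and marker shapes for the replicate number. In all 4 panels the diets overlap, and the exact permutation p-values lie between 0.6 and 1.

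After Benjamini-Hochberg adjustment over the 4 ratios tested, each exact p was 1. The fourth ratio, Slc17a6 to Slc17a7, is given with the vesicular transporters.

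Slc1a4, the gene of the neutral amino acid exchanger ASCT1, lies on chromosome 11 from 20302180 to 20332713 on the minus strand. The NCD libraries had 41.5, 42.4 and 42.2 CPM, and the HFD libraries 46.2, 42.1 and 33.1 CPM. The NCD values were close together (coefficient of variation 1.17%), whereas the HFD held both the highest and the lowest library of the 6 (16.5%). Its log2 fold change was −0.05 with an interval from −0.34 to 0.23 (edgeR adjusted p = 0.981), and it turned to 0.07 without HFD replicate 3.

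Of the vesicular transporters, Slc17a7 was the most abundant in every library. It encodes VGLUT1, the transporter of cortical and hippocampal excitatory terminals, and lies on chromosome 7 from 45163949 to 45176142 on the plus strand. The levels were 305, 254 and 284 CPM on the NCD and 278, 263 and 279.9 CPM on the HFD, and all 3 HFD libraries lay within the NCD range. This gave a log2 fold change of −0.04 with an interval from −0.26 to 0.18 (edgeR adjusted p = 0.982).

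Slc17a6, the gene of VGLUT2, lies on the same chromosome from 51622006 to 51671119 on the plus strand. It had 92.9, 127 and 124 CPM on the NCD and 114, 115 and 100.5 CPM on the HFD. NCD replicate 1 was the lowest and NCD replicate 2 the highest of the 6, so the HFD libraries lay inside the NCD range. This gave a log2 fold change of −0.06 with an interval from −0.33 to 0.21 (edgeR adjusted p = 0.979), and it was 0.000114 without HFD replicate 3.

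The gene with the fewest counts was Slc17a8, which encodes VGLUT3 and lies on chromosome 10 from 89574020 to 89621253 on the minus strand. It had 12, 25 and 24 counts in the NCD libraries against 9, 24 and 21 counts in the HFD libraries, which is 1.48, 2.70 and 2.53 CPM against 1.30, 2.62 and 2.89 CPM. Replicate 1 of each diet was the lowest, and the ranges overlapped. The log2 fold change of 0.02 had an interval from −0.86 to 0.91, so an HFD level between 0.551 and 1.87 times that of the NCD could not be told from no difference at this depth, and without HFD replicate 3 the log2 fold change was −0.17. Serotonergic markers, from a cell type that carries VGLUT3, summed to 2.83, 7.98 and 10.7 CPM on the NCD and 4.03, 1.64 and 1.09 CPM on the HFD, and both of the 2 that were tested had an unadjusted p under 0.05 and were lower on the HFD. Cholinergic markers ran from 20.9 to 21.3 CPM on the NCD and from 13.9 to 26.5 CPM on the HFD.

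Slc17a7 gave 70.6 ± 5.21% of the counts of the 3 vesicular transporters on the NCD and 70.9 ± 2.01% on the HFD (SD, n = 3 each), with a range from 66.3% to 76.4%. The share of Slc17a6 ran from 23.3% to 33.0% and that of Slc17a8 from 0.329% to 0.753%. The ratio of Slc17a6 to Slc17a7 was lowest in NCD replicate 1, at 0.305, and highest in NCD replicate 2, at 0.499. The HFD libraries, at 0.412, 0.439 and 0.359, lay between these values. The log2 difference between the diets was −0.01 with an exact permutation p of 1, and it was 0.068 without HFD replicate 3.

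**Figure D3:**
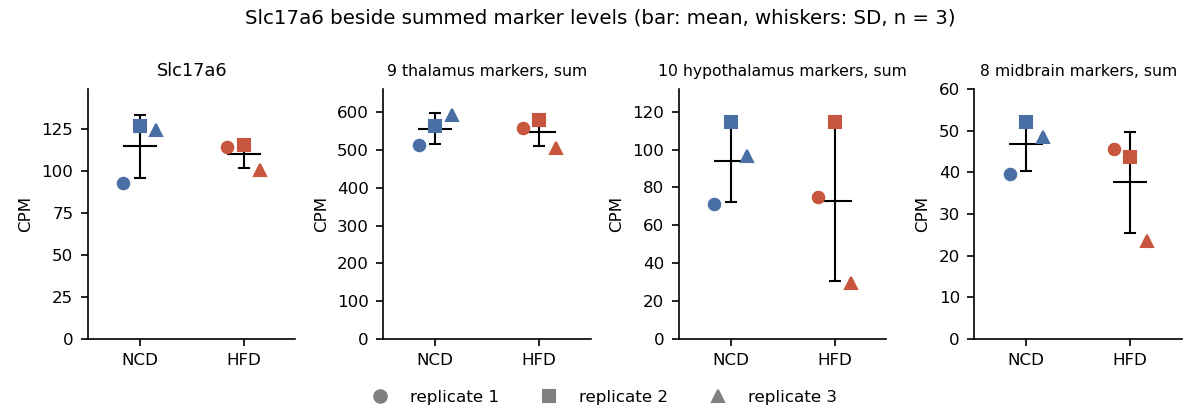
Slc17a6 and the summed levels of thalamus, hypothalamus and midbrain markers, in CPM (vertical axes, from 0), in the 3 NCD and 3 HFD libraries, with the mean and SD (n = 3) and marker shapes for the replicate number. NCD replicate 1 has the least Slc17a6, 92.9 CPM, and HFD replicate 3 the least of the summed hypothalamus markers, 29.5 CPM.

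The level of Slc17a6 was set beside markers of regions that use VGLUT2 (VGLUT2 is the vesicular transporter of most thalamic and hypothalamic excitatory neurons). The 9 thalamus markers summed to 513, 565 and 594 CPM on the NCD and 559, 581 and 506 CPM on the HFD. NCD replicate 1 and HFD replicate 3 were the lowest libraries for this sum and also for Slc17a6. Marker by marker, HFD replicate 3 was the lowest library for 2 of the 9 and NCD replicate 1 for 2 of the 9. The hypothalamus markers summed to 71.5, 115 and 96.6 CPM on the NCD and 75.0, 114 and 29.5 CPM on the HFD, and the midbrain markers to 39.7, 52.1 and 48.6 CPM against 45.5, 43.7 and 23.6 CPM. For both of these lists HFD replicate 3 was the lowest, while NCD replicate 1 was the lowest for Slc17a6. Markers of the telencephalon, which makes the cortex and the striatum, ran from 221 to 244 CPM on the NCD and from 221 to 235 CPM on the HFD. NCD replicate 2, the highest library for Slc17a6, was also the highest for the olfactory bulb markers, at 139.9 CPM. What part regional content has in the level of Slc17a6 was not tested.

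In order of mean level over the 6 libraries, the 9 genes stood as Slc1a2, Glul, Slc1a3, Slc17a7, Slc38a1, Slc17a6, Slc1a1, Slc1a4 and Slc17a8. The ranges over the libraries were apart for all neighbours in this order but 2 pairs. Slc17a7 was above Slc38a1 in 5 of 6 libraries and Slc1a1 above Slc1a4 in 5 of 6 libraries, and the ranges of each pair overlapped. Because 3′ reads are taken near the end of a transcript, CPM were not divided by length here. Divided by the longest coding transcript, Glul came first with 697 CPM per kb of transcript, ahead of Slc1a2 with 242 and Slc1a3 with 140, and the order of the rest did not change. On that scale Slc17a7 had 95.1, Slc38a1 33.4, Slc17a6 27.1, Slc1a1 13.5, Slc1a4 10.5 and Slc17a8 0.505 CPM per kb. The order of Slc1a2 and Glul thus rested on whether length was used.

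**Figure D4:**
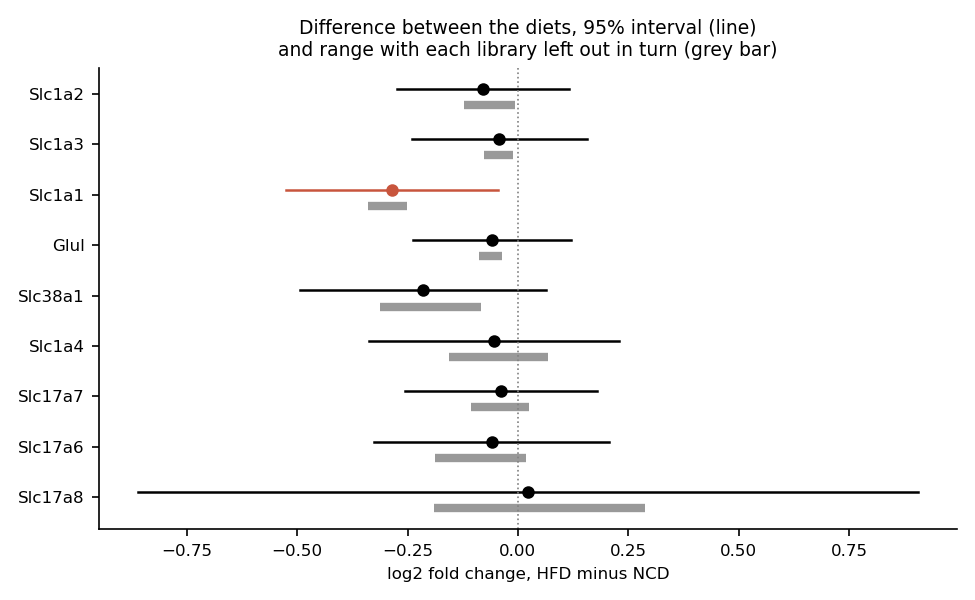
Log2 fold change of each of the 9 genes, HFD minus NCD (horizontal axis), with its 95% interval from the edgeR fit (points and lines) and, as a grey bar, the range of the log2 fold change when each of the 6 libraries is left out in turn. Slc1a1 is drawn in colour, as the gene with an unadjusted p under 0.05, and its bar runs from −0.34 to −0.25, while the interval of Slc17a8, from −0.86 to 0.91, is the widest.

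The genes that tracked a transporter most closely over the 6 libraries are given as a description, since 6 points and 13771 genes make high correlations common: the best partner of the median gene had a Pearson r of 0.993. For Slc1a2 these were Flrt1 (r = 0.999), Eml2 (r = 0.997) and Dscaml1 (r = 0.997). The closest to Slc17a6 were Nog (r = 0.999), Ninj2 (r = 0.992) and Isoc1 (r = 0.981), and to Slc17a7 Tmem194 (r = 0.992), Ttc9b (r = 0.981) and Rin1 (r = 0.977). Among the 9 genes, r was highest for Slc1a2 with Slc38a1, at 0.87, and lowest for Slc17a6 with Slc17a7, at −0.74. These points share the same 6 libraries and their depth.

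The wider pathway was taken from 7 lists with 50 genes, of which 44 passed the filter. Not one of the 44 passed the edgeR test after Benjamini-Hochberg adjustment over all genes. At an unadjusted p of 0.05 the test held 1 of the 44, Atp1b2, beside 3.68% of all genes. Below 0 on the log2 scale were 38 of the 44, against 50.6% of all genes, with a median of −0.14. HFD replicate 3 was the lowest library for 24 of the 44, against 27.1% of all genes. Without HFD replicate 3, 27 of the 44 were below 0, against 51.2% of all genes, and the median was −0.03. The lower values of the wider pathway therefore rested in large part on that library. For 6 of the 44 the diets did not overlap, against 8.81% of all genes in either direction. Each of the 6 was lower on the HFD, a direction that held 4.49% of all genes.

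**Figure D5:**
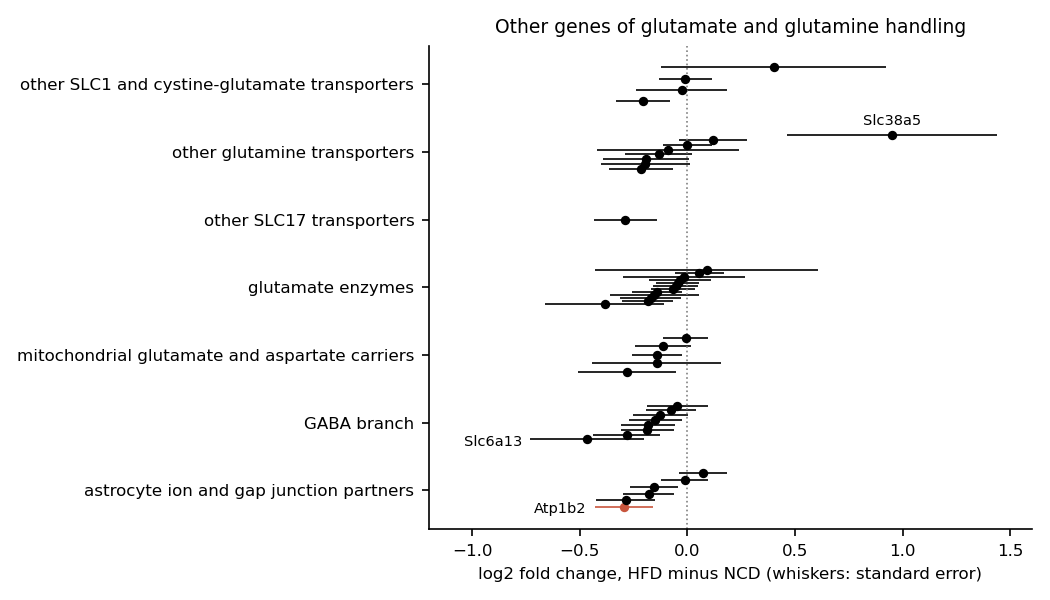
Log2 fold change, HFD minus NCD (horizontal axis), of the 44 tested genes in 7 lists (rows), with its standard error as whiskers. Atp1b2, in colour, is the gene with an unadjusted p under 0.05 and had a log2 fold change of −0.29, and 38 of the 44 points lie to the left of 0 (27 of 44 without HFD replicate 3).

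Atp1b2, the beta subunit of the astrocytic sodium pump whose ion gradient drives GLT-1 and GLAST, had 239, 254 and 289.8 CPM on the NCD and 242, 234 and 163 CPM on the HFD. HFD replicate 3 was far under the rest. Its log2 fold change was −0.29 with a standard error of 0.14, its edgeR p was 0.0456 before and 0.979 after Benjamini-Hochberg adjustment, and Atp1b2 did not pass an unadjusted p of 0.05 without HFD replicate 3. The highest value of its list was that of Gjb6 (connexin 30), at 0.07. Kcnj10, the potassium channel Kir4.1 of astrocytes and a gene named after its values were seen, had 117, 125 and 115 CPM on the NCD and 108, 111 and 73.4 CPM on the HFD, with a log2 fold change of −0.29 and an unadjusted edgeR p of 0.0521. HFD replicate 3 was again the lowest library, and without it Kcnj10 did not pass an unadjusted p of 0.05 either.

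Of the other carriers of glutamine, all 8 were tested and 6 were below 0. Slc38a3, the SNAT3 exporter of astrocytes, had the lowest log2 fold change of this list, −0.21 ± 0.15 (standard error). Slc38a5, the related carrier SNAT5, had the highest, 0.95 ± 0.49, with 10, 23 and 11 counts on the NCD and 29, 38 and 8 counts on the HFD. Its unadjusted edgeR p was 0.0693. HFD replicate 3 had the lowest count of the 6 and the other HFD libraries the highest, and without it Slc38a5 passed an unadjusted p of 0.05. Of the remaining SLC1 and cystine-glutamate carriers 4 of 5 were tested, and the extremes were Slc1a5 (ASCT2) at 0.40 ± 0.52 and Slc3a2, the heavy chain that xCT needs, at −0.21 ± 0.12. Slc1a5 had only 13, 18 and 4 counts on the NCD and 9, 19 and 13 counts on the HFD. In the SLC17 family outside the vesicular glutamate transporters 1 of 6 was tested. This was Slc17a5, the lysosomal sialic acid carrier sialin, with 23.3, 20.9 and 19.9 CPM on the NCD and 17.99, 17.7 and 16.8 CPM on the HFD, where the diets were apart (log2 fold change −0.29 ± 0.15) and the unadjusted edgeR p was 0.0648.

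Among the 12 enzymes of glutamate metabolism 10 were below 0. The lowest was Gpt, alanine aminotransferase, at −0.38 ± 0.28, and the highest Bcat2, the mitochondrial branched-chain aminotransferase, at 0.09 ± 0.52, both at low counts. All 5 mitochondrial glutamate and aspartate carriers were below 0, from Slc25a18, the glutamate carrier GC2, at −0.28 ± 0.23 to Slc25a11, the oxoglutarate carrier, at −0.01 ± 0.10. All 8 genes of the GABA branch were below 0 as well, and HFD replicate 3 was the lowest library for 7 of these 8. The lowest was Slc6a13 (GAT2), at −0.47 ± 0.26 with an unadjusted edgeR p of 0.0949 and diets that did not overlap.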

How the data were processed

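QuantSeq 3′ libraries of mouse forebrain were measured in 3 NCD and 3 HFD samples, grouped by their titles. Reads were trimmed by the authors and aligned to mm10 with Bowtie2, and the authors counted unique and multiple alignments per gene with Bedtools coverage. The deposited values are whole-number counts without normalization, and the quantile normalization named in the methods is not in them. The annotation and the use of strand are not given in the sources used here. Each table has 23282 entries, among them 79 with a repeated symbol, which were not merged, and 4346 without a count.

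Counts were tested with edgeR 4.0.16 in R 4.3.3 (TMM, filterByExpr at min.count 10 and min.total.count 15, glmQLFit, glmQLFTest, two-sided). Benjamini-Hochberg adjustment ran over the 13771 genes that passed, and 95% intervals came from the same fit. CPM used TMM library sizes. Total counts of 6842785 to 9689372 make a floor of 3 counts equal to 0.316 to 0.432 CPM, which covers counting error only. Ratios used counts with 0.5 added and an exact permutation test over libraries (scipy 1.17.1). Correlations used log2 CPM with a prior count of 2. DESeq2 1.42.0, limma 3.58.1, other scalings and filters, a replicate block and leaving out each library were alternatives. The script was tested on simulated data.

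The 9 members and all gene lists were chosen with earlier results of these data known. Named from the pathway lists were genes with an unadjusted p under 0.05 and the highest and lowest gene of each list. Exceptions are marked, and 1 gene that this rule names is not reported here. Positions, lengths and overlaps came from the GENCODE annotation of GRCm38, the assembly of mm10. Same-numbered libraries of the diets did not deviate together, with r from −0.06 to 0.05. No protein sequences were used here, and metabolite data were not analysed here.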

Additional observations from a re-analysis of the deposited data

How the results depend on the processing

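Over 15 alternatives, no member of the 9 passed an adjusted p of 0.05, and the smallest adjusted p was 0.839. Of 211 recomputed values 179 were labelled the same. For fold changes this meant the same direction and side of the threshold, and for ratios the same direction alone. For counts it meant a value within 1.5 times, and for the median of the members a shift below the spread between libraries. The count of members at an unadjusted p under 0.05, main value 1, was 0 to 1 with a library left out. It was 0 without NCD replicate 1, NCD replicate 2 or HFD replicate 1, and Slc1a1 then had log2 fold changes of −0.28, −0.27 and −0.27. The count for the wider pathway, main value 1, was 0 with library size alone, 2 with quantile normalization and limma, 4 with no filter, 2 with at least 10 counts in every library, 2 with robust estimation, and 1 to 3 with a library left out. The cause was not tested.

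Small values changed sign. Slc17a8 was −0.00139 with library size alone and ran from −0.19 to 0.29 with a library left out. Under the same exclusions Slc17a7 ran from −0.11 to 0.025, Slc17a6 from −0.19 to 0.017 and Slc1a4 from −0.16 to 0.068. The log2 ratio of Slc1a3 to Slc1a2 ran from −0.042 to 0.087, that of Glul to Slc1a2 from −0.054 to 0.073 and that of Slc17a6 to Slc17a7 from −0.22 to 0.14, while that of Slc38a1 to Glul stayed below 0, from −0.23 to −0.025. The median of the 9 members stayed between −0.10 and −0.04 in all 15 alternatives. Slc17a8 had no value with at least 10 counts in every library, since HFD replicate 1 had 9.

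The labels give same-numbered libraries only a number in common, and whether they shared a preparation or sequencing step is not stated. With the replicate block, 371 genes in place of 507 passed an unadjusted p of 0.05, Slc1a1 had a log2 fold change of −0.29 and an unadjusted edgeR p of 0.0376, and the pathway gene that passed was Kcnj10 in place of Atp1b2. Depth limits Slc17a8 most, since it had 9 to 25 counts per library.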
